A study of Mus musculus with 6 samples.

Results

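The cartilage fibril collagens are the 7 mouse genes that encode the chains of collagens II, IX, XI and XXVII, namely Col2a1, Col9a1, Col9a2, Col9a3, Col11a1, Col11a2 and Col27a1. Every non-control spot that the array files assign to 1 of these names was taken, which gave 8 probes, 2 of them for Col9a1, out of 55672 probes and 34841 gene names. RNA of the outer interzone and of the intermediate interzone was compared in mouse embryos of gestational age 15.5 days, with 3 samples a group. The design text has 1 embryo a replicate, and does not say whether samples of both groups with the same number share an embryo. The interzone is the band of dense mesenchyme at a future synovial joint, where an intermediate layer lies between outer layers that border the cartilage. The labels name no strain, genotype or treatment for either group, and give no account of how the layers were taken apart.

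Collagen II is the bulk of the cartilage fibril and is a homotrimer of the Col2a1 product. Collagen XI lies inside the fibril and limits its width, with chains from Col11a1, Col11a2 and a modified Col2a1 product. Collagen IX is a heterotrimer of the Col9a1, Col9a2 and Col9a3 products that coats the fibril surface, and collagen XXVII is a fibrillar collagen of thin fibrils in growing cartilage. Chondrocytes are known for transcribing these genes together under SOX9 and its partners SOX5 and SOX6.

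Col9a1 has alternative start sites, and its longer chain carries an amino-terminal domain that stands out from the fibril surface. The array holds a probe toward either end of its transcript, and the 5′ probe is shown whole because its result differed from that of the 3′ probe. By the file annotation on build mm9 it lies at chr1:24201545-24201604 (+ strand), at transcript position 964, and is assigned to 2 Ensembl transcripts. The 3′ probe lies at chr1:24259125-24259184 (+ strand), at position 3435, and is assigned to 3 transcripts, among them the same 2. Of the 3′ probe 30 bases are given, with the polyadenylation signal AATAAA in capitals.
Col9a1 5′ probe: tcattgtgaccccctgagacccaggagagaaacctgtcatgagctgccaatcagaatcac
Col9a1 3′ probe: cccactacattcAATAAAattggtgcttaa

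Promoter sequence from RefSeq (GRCm38.p6) was at hand for 5 of the 7 genes, in 6 windows of 250 bases ahead of the start site, all on the + strand. Col2a1 and Col9a3 have no entry. The windows shown are those of the alternative Col9a1 starts, at chr1:24177360-24177609 and chr1:24194953-24195202, and of both collagen XI genes, whose differences between the layers were unlike. Col11a1 lies at chr3:114030290-114030539 and Col11a2 at chr17:34038888-34039137. Capitals mark the GC box GGGCGG, with its complement CCGCCC, and the TATA box TATAAA.
Col9a1 upstream start: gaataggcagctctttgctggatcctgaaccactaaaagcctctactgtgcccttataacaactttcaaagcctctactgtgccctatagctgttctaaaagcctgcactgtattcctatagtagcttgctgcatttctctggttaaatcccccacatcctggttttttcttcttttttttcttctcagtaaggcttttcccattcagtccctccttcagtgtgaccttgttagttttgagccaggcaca
Col9a1 downstream start: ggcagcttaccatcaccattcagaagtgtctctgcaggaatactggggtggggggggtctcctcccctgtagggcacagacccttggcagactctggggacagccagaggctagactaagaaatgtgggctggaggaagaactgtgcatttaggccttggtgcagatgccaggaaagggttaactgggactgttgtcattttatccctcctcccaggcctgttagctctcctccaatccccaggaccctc
Col11a1: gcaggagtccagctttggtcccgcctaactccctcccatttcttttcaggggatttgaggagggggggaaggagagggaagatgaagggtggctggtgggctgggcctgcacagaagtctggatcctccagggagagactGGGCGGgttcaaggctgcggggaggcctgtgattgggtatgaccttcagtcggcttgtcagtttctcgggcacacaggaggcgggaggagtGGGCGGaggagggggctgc
Col11a2: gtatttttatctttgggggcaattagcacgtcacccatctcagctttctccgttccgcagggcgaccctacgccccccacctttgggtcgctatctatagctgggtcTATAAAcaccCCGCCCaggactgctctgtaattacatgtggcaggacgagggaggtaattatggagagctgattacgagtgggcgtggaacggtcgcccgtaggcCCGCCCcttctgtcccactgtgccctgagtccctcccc

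The GC box occurred in 4 of the 6 windows, against 32.7% of 32851 RefSeq promoter windows of the same length, and the windows without it were both of Col9a1. It began at -110 and -19 from the start in Col11a1, at -133 and -38 in Col11a2, at -26 and -14 in Col9a2, and at -85 in Col27a1. The TATA box letters occurred in 1 window, that of Col11a2 at -143, against 12.4% of all windows. The SOX-type letters AACAAT (in 9.42% of all windows) and ACAAAG (16.5%) were in none of the 6. Both strands were searched, no motif here holds another, and a match or its absence describes these letters in these windows alone. GC content ran from 43.6% at the upstream Col9a1 start to 62.4% at Col11a1, with a median of 52.4% over all windows.

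Levels are log2 of the processed signal divided by its own array's 75th percentile, so that a level of 0 equals that percentile, and differences are outer minus intermediate. That percentile was 47.4 to 290 on the outer arrays and 144 to 344 on the intermediate arrays, and outer replicate 1 was the dimmest array, where 35.6% of spots stood well above background (45.1% to 53.4% elsewhere). Saturation was seen on 0 spots. Over the 23881 probes tested with limma, 3.48% passed an adjusted p of 0.05, of which 317 were higher and 515 lower in the outer interzone. With each array scaled to its median this split was 183 higher and 1177 lower. Leaving out 1 array moved the total of 832 by over 1.5 times for outer replicate 3 (112) and for intermediate replicates 1, 2 and 3 (166, 445 and 75). The replicate number as a block gave 1723.

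Of the 7 collagen probes that could be tested, 5 passed as higher in the outer interzone, against 1.33% of all tested probes, and the remaining 2 did not pass. Collagen II, the 3 chains of collagen IX and the Col11a2 chain of collagen XI rose by 6.74-fold to 19.4-fold, while Col11a1 and Col27a1 differed by less than 2-fold. The median difference was 3.19 over the 7 probes and 0.09 over all tested probes. All 7 had outer samples above all intermediate samples, as had 14.8% of all tested probes. The count of 5 was 3 without outer replicate 3, without intermediate replicate 1 or without intermediate replicate 3, and 7 when replicate number was a block, but 5 when slide was a block as well. With both blocks each difference is that of outer replicate 1 minus intermediate replicate 1, the only same-numbered samples on the same slide. These are bulk samples, in which fewer cells of a type and less RNA per cell cannot be told apart.

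**Figure D1:**
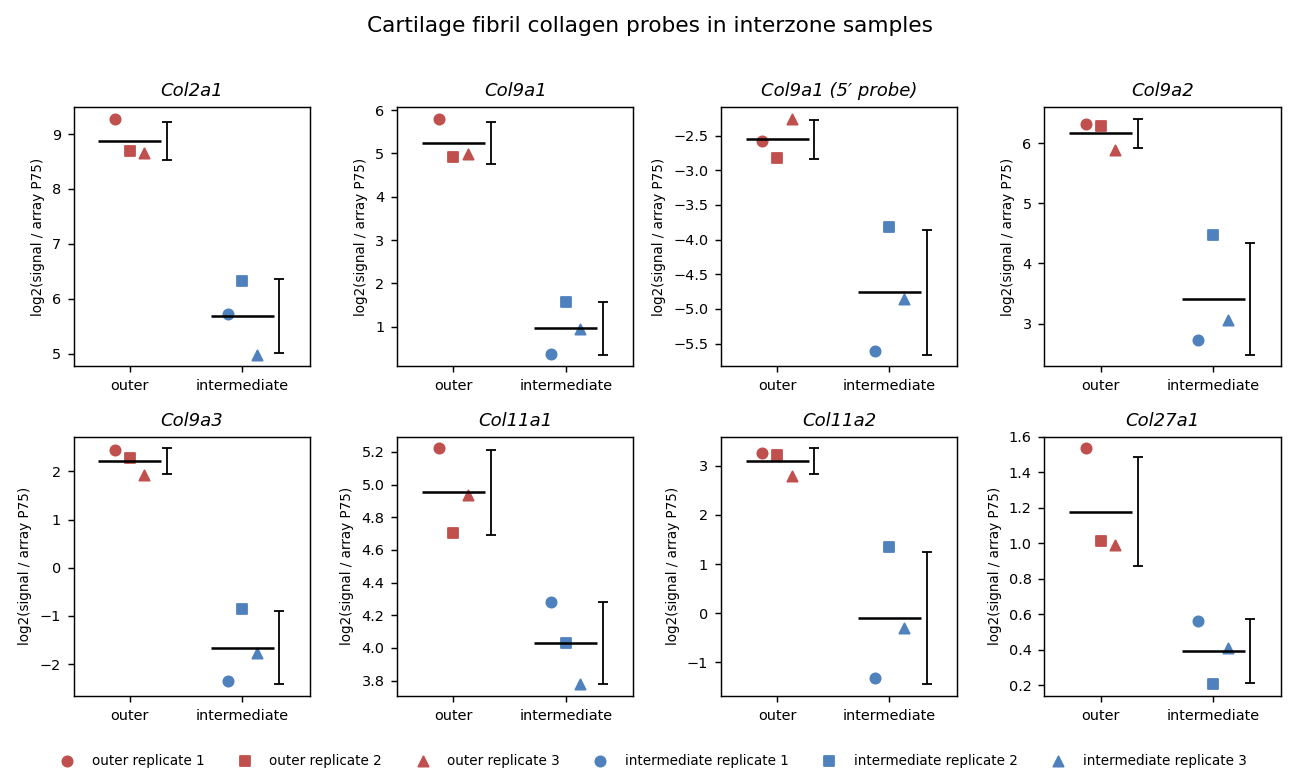
Level of each collagen probe (y axis, log2 of signal over the 75th percentile of the array, scaled separately per panel) in the 3 outer samples (red, left) and the 3 intermediate samples (blue, right) of each panel. Horizontal lines are group means, bars beside them span 1 SD either side, and marker shapes give the replicate number. In all 8 panels the lowest outer sample lies above the highest intermediate sample.

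Col2a1 encodes the chain of collagen II, and its probe lies at chr15:97806071-97806130 (mm9, - strand). Its level was 9.28, 8.69 and 8.65 in outer replicates 1, 2 and 3, against 5.72, 6.33 and 4.98 in intermediate replicates 1, 2 and 3. The lowest outer sample thus stood 2.32 above the highest intermediate one, and the widest spread was among the intermediate samples. The difference was 3.19 ± 0.36 (SE, n = 3 a group; 95% interval 2.34 to 4.05), or 9.15-fold (limma adjusted p = 0.0111). Only 0.222% of all tested probes had a larger difference toward the outer interzone.

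Among the collagen IX genes, the 3′ probe of Col9a1 gave the widest difference of the 7. Its level was 5.80, 4.92 and 4.99 in the outer samples and 0.36, 1.56 and 0.95 in the intermediate samples. All outer samples were at least 3.35 above all intermediate samples, and the difference was 4.28 ± 0.37 (95% interval 3.41 to 5.15), or 19.4-fold (limma adjusted p = 0.00674). The 5′ probe, whose sequence is given above, was dim. Its level was -2.58, -2.82 and -2.26 in the outer samples and -5.61, -3.82 and -4.85 in the intermediate samples. It was well above background on 2 of 3 outer arrays and 1 of 3 intermediate arrays, so it was not tested, though here too the groups did not overlap. Its difference of 2.21 had an SE of 0.50 and an adjusted p of 0.26 when limma was run with no filter on dim probes. The probe starts lie 2471 transcript bases apart. The 2 probes share the direction of the difference but not the signal that would allow a test at the 5′ end. With no filter the median difference of all probes was 0.57, against 0.09 over the tested probes. A direction toward the outer interzone at a dim probe therefore says little.

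Col9a2, which encodes the second chain of collagen IX (probe at chr4:120727698-120727757, mm9, + strand), had levels of 6.32, 6.29 and 5.88 in the outer samples and 2.72, 4.47 and 3.05 in the intermediate samples. Intermediate replicate 2 was the highest of its group and still lay 1.42 below the lowest outer sample. The difference was 2.75 ± 0.44 (95% interval 1.71 to 3.79), or 6.74-fold (limma adjusted p = 0.0243). The call was lost without outer replicate 3 (2.89, adjusted p = 0.0747), without intermediate replicate 1 (2.41, 0.0738) and without intermediate replicate 3 (2.57, 0.110).

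Col9a3, the gene of the third chain (probe at chr2:180356123-180356182, mm9, + strand), had levels of 2.44, 2.28 and 1.93 in the outer samples and -2.35, -0.85 and -1.77 in the intermediate samples. The outer samples lay close together and the groups were 2.78 apart at their nearest. The difference was 3.87 ± 0.38 (95% interval 2.98 to 4.76), or 14.6-fold (limma adjusted p = 0.00785). In the fit with normexp background correction it was 2.70 (adjusted p = 0.0031).

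Of the collagen XI genes, Col11a2 passed and Col11a1 did not. Col11a2 (probe at chr17:34203113-34203172, mm9, + strand) had levels of 3.27, 3.22 and 2.79 in the outer samples and -1.33, 1.34 and -0.31 in the intermediate samples. The outer samples were close together, while the intermediate samples spread over more than any other tested collagen, with an SD of 1.35 against 0.27 in the outer samples. The difference of 3.19 ± 0.61 (95% interval 1.75 to 4.63), or 9.13-fold, passed with a limma adjusted p of 0.0415. Its p lay above 0.05 without any 1 array other than intermediate replicate 2, namely 0.0787, 0.0625 and 0.107 without outer replicates 1, 2 and 3, and 0.0823 and 0.156 without intermediate replicates 1 and 3. The difference itself stayed between 2.58 and 3.34 in those 5 fits.

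Col11a1, the other collagen XI gene (probe at chr3:113923185-113923244, mm9, + strand), had levels of 5.22, 4.70 and 4.93 in the outer samples and 4.28, 4.03 and 3.78 in the intermediate samples. The groups did not overlap, and the nearest samples were 0.42 apart. The difference was 0.92 ± 0.22 (95% interval 0.41 to 1.44), or 1.90-fold, and did not pass (limma adjusted p = 0.0725). It passed with the replicate number as a block (adjusted p = 0.0422). With the slide as a further block it was 0.94 and did not pass (0.138), but that difference rests on replicate 1 of each group alone. It was 0.53 with each array scaled to its median (0.246).

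Col27a1, the gene of collagen XXVII (probe at chr4:62995485-62995544, mm9, + strand), had levels of 1.54, 1.01 and 0.99 in the outer samples and 0.56, 0.21 and 0.41 in the intermediate samples. Outer replicate 1 was its highest sample, and the nearest outer and intermediate samples were 0.43 apart. The difference was 0.78 ± 0.22 (95% interval 0.27 to 1.30), or 1.72-fold, and did not pass (limma adjusted p = 0.108). In limma it passed when replicate number was a block (adjusted p = 0.0478). When slide was a block the difference was 1.14, the same as within slide 1. That value rests on outer replicate 1 as the lone outer sample, so its p is not given. With both blocks it was 0.97 and did not pass (0.106), but that difference rests on replicate 1 of each group alone. It was 0.39 with each array scaled to its median (0.352).

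**Figure D2:**
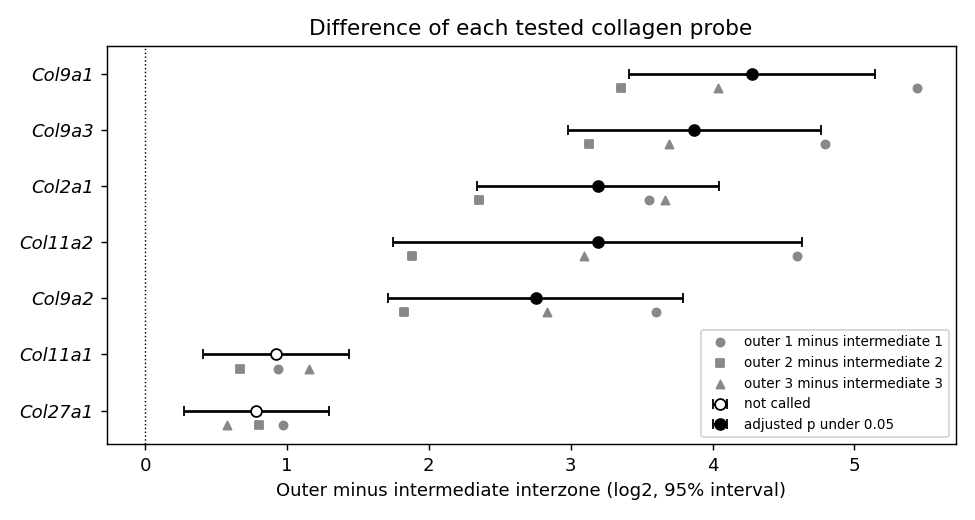
Difference between outer and intermediate interzone (x axis, log2) for the 7 tested collagen probes, with the 95% interval from limma as a bar and the difference of each same-numbered pair of samples as a grey marker. Filled circles passed an adjusted p of 0.05 and open circles did not. Col11a1 at 0.92 and Col27a1 at 0.78 lie apart from the other 5, which run from 2.75 to 4.28.

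The difference between same-numbered samples was above 0 for every tested collagen and every number, which follows from groups that do not overlap. For Col9a1 it was 5.44, 3.35 and 4.04 for numbers 1, 2 and 3, for Col11a2 4.60, 1.88 and 3.09, and for Col2a1 3.55, 2.36 and 3.67. Number 2 gave the smallest difference for Col2a1, all 3 collagen IX genes and both collagen XI genes, and number 3 gave the smallest for Col27a1 (0.58, against 0.97 and 0.81). Outer replicate 1 lay above its group mean for 7 of 7 genes and outer replicate 3 below it for 7 of 7. Intermediate replicate 2 lay above its group mean for 6 of 7.

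Slide 1 held all 3 intermediate arrays and outer replicate 1, and slide 2 held outer replicates 2 and 3. Within slide 1, with outer replicate 1 as the lone outer sample and assumed to vary like the intermediate ones, the differences were 3.60 for Col2a1, 4.84 for Col9a1, 2.91 for Col9a2, 4.10 for Col9a3, 1.19 for Col11a1, 3.37 for Col11a2 and 1.14 for Col27a1. Of these, 4 passed in limma, and Col11a2 did not (adjusted p = 0.072). Without outer replicate 1, the dimmest array, the differences were 2.99, 4.0, 2.67, 3.76, 0.79, 3.1 and 0.61 in the same order of genes, and the same 4 passed.

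Whether 2 collagens differed by unequal amounts was asked from the log2 ratio of their probes within an array, which does not depend on how arrays are scaled. Only the change of such a ratio can be read, since its size also depends on how each probe hybridises. Of the 21 gene pairs, which share 7 genes, 16 had outer and intermediate ratios that did not overlap, as had 29.6% of all pairs of tested genes in either direction. The count was 14 with normexp background correction. The 16 pairs reached p = 0.1 in an exact two-sided permutation test over the 6 arrays, the smallest that this test gives with 3 against 3 samples, and 0.131 after adjustment over the 21 pairs, so this test could not pass the threshold for any pair.

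The ratio of Col2a1 to Col11a1 was 4.06, 3.98 and 3.72 in the outer samples and 1.44, 2.30 and 1.20 in the intermediate samples, a change of 2.27. The ratio of Col11a1 to Col11a2 was 1.95, 1.48 and 2.15 in the outer samples and 5.61, 2.69 and 4.09 in the intermediate samples, a change of -2.27. Both kept their groups apart, so Col11a1 differed by less than Col2a1 and Col11a2 within every outer array relative to every intermediate array. Within collagen IX, the ratio of Col9a1 to Col9a2 changed by 1.53 and that of Col9a2 to Col9a3 by -1.12, each without overlap. The latter change depended on the background correction. With normexp and quantile normalization Col9a2 differed by 2.59 and Col9a3 by 2.70, which lie close together, while Col9a1 differed by 3.98.

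The 5 pairs whose ratios overlapped were Col2a1 with Col9a2 (change 0.44, exact permutation p = 0.4), Col2a1 with Col9a3 (-0.68, p = 0.2), Col2a1 with Col11a2 (0.00, p = 1), Col9a1 with Col9a3 (0.41, p = 0.3) and Col11a1 with Col27a1 (0.14, p = 0.6). These p-values do not show that such pairs changed alike.

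**Figure D3:**
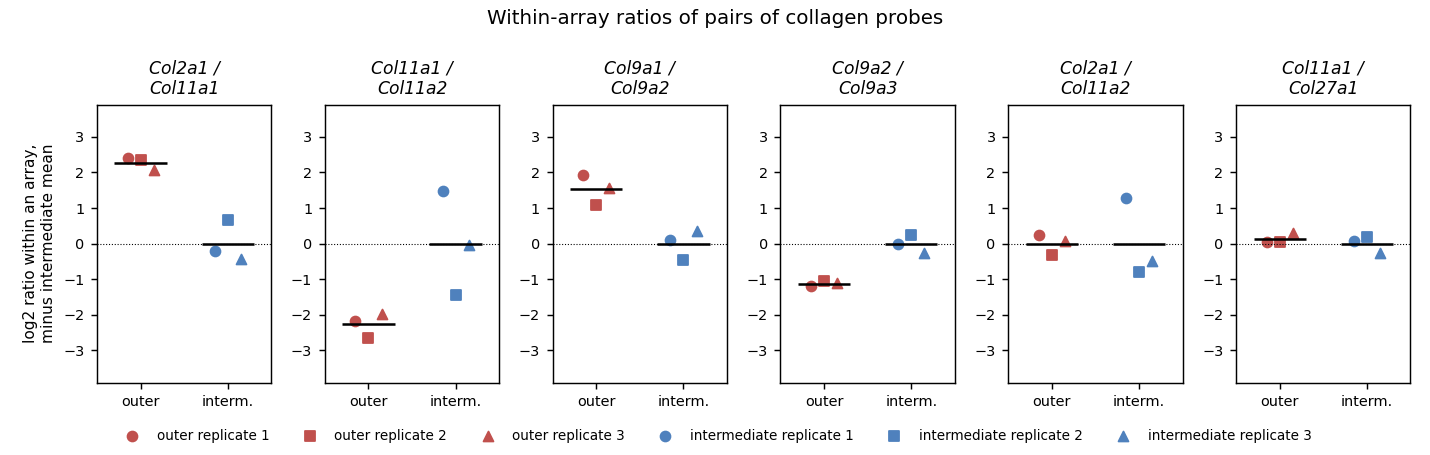
Log2 ratio of 2 collagen probes within each array (y axis), with the mean of the intermediate samples subtracted, for 6 of the 21 gene pairs. Outer samples are red and on the left of each panel, intermediate samples are blue, horizontal lines are group means and marker shapes give the replicate number. The first 4 pairs have groups that do not overlap, and the last 2, with changes of 0.00 and 0.14, overlap.

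Over the 6 arrays, each collagen followed the mean of the other 6 with a Pearson r of 0.838 (Col27a1) to 0.995 (Col9a3). The r was 0.887 for Col11a1 and 0.955 or more for the remaining 5. The arrays are shared by all genes, and the group difference makes up most of such an r, which is given as a description. Of 10632 other genes well above background on all 6 arrays, the profile closest to the mean of the collagens was that of Matn4, which encodes matrilin 4 (r = 0.997). Slc41a1, a magnesium carrier gene (0.996), Sostdc1, a secreted antagonist of BMP and WNT signals (0.996), Ptch1, the hedgehog receptor (0.995), and the noncoding Snhg7 (0.995) came next. Their differences, which the choice by profile bears on and which are given with no test, were 3.16 for Ptch1, 4.23 for Sostdc1, 0.65 for Slc41a1 and 0.90 for Snhg7.

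Genes that work with the cartilage collagens were taken from 7 lists, each gene by its brightest tested probe, among 18001 genes of which 1.44% were called higher and 2.28% lower in the outer interzone and whose median difference was 0.10. Of the fibril-associated matrix genes 16 of 18 were tested, 6 were higher, 1 lower and 9 did not pass, with a median of 0.38. Matn4 encodes a matrilin, an adaptor that binds collagens and aggrecan, and rose by 4.18 (limma adjusted p = 0.0082). Hapln1, the link protein of aggrecan, rose by 3.14 (0.00785). The matrilin genes Matn1 and Matn3 also rose (0.0182 and 0.00707), but only 1 of 3 intermediate arrays had either well above background. Their differences of 6.0 and 4.91 were 2.34 and 1.64 with normexp background correction, where Matn4 stood at 3.78 and Hapln1 at 2.93. The 7 calls of this list were 3 without outer replicate 3, 3 without intermediate replicate 1 and 2 without intermediate replicate 3.

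Of the regulators of collagen genes 11 of 16 were tested, 2 were higher and 9 did not pass, with a median of 0.29. Sox9, the transcription factor that activates Col2a1, Col9a1 and Col11a2, had levels of 3.63, 4.13 and 3.86 in the outer samples and 1.23, 2.26 and 1.87 in the intermediate samples. The groups did not overlap, and the difference was 2.09 ± 0.29 (limma adjusted p = 0.0177). Wwp2, a ubiquitin ligase that is the host gene of the Sox9-induced miR-140, rose by 2.10 (0.00785). Sox5 and Sox6, the partners of SOX9, differed by 0.29 (0.526) and 0.96 (0.201), and Sox6 passed with the replicate number as a block (0.0393). The 2 calls were 1 without outer replicate 3 and 0 without intermediate replicate 3.

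Of the collagen folding and modification genes all 20 were tested, and P4ha2 alone was called. P4ha2 encodes a prolyl 4-hydroxylase subunit, which stabilises the triple helix, and was higher by 1.10 (limma adjusted p = 0.0185), while the list's median was -0.04. That call was lost without outer replicate 3 or any 1 intermediate replicate, and with each array scaled to its median (0.71, 0.123). With the replicate block P4ha3, a related subunit, was also called (-1.51, 0.0311). Serpinh1, the collagen chaperone HSP47, differed by -0.04 and did not pass.

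Of the export, trimming and cross-linking genes 17 of 19 were tested, 2 were higher, 3 lower and 12 did not pass, with a median of -0.20. Lox and Loxl1, lysyl oxidases that cross-link collagen and elastin, fell by 1.46 (limma adjusted p = 0.0147) and 1.49 (0.0203), and Adamts2, a procollagen N-proteinase, fell by 2.01 (0.029). Pcolce2, an enhancer of procollagen C-proteinase, rose by 1.75 (0.0184). Unlike Lox and Loxl1, the lysyl oxidase gene Loxl3 was higher in the outer interzone, by 1.16 (0.0274). The 5 calls were 0 without outer replicate 3, intermediate replicate 1 or intermediate replicate 3, and 2 without intermediate replicate 2. With the replicate block Adamts3, another procollagen N-proteinase, was also called (1.23, 0.0418, against 0.216 without the block), as was the tolloid-like proteinase gene Tll1 (0.81, 0.0499, against 0.0742), each well above background on 5 of 6 arrays.

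None of the 7 other fibrillar collagens and none of the 5 tested of 6 other FACIT collagens, the surface collagens related to collagen IX, passed in limma. Col1a2 and Col3a1, which encode chains of collagens I and III, each differed by 0.07 (limma adjusted p = 0.927 and 0.892), with signs that turned under some scalings. Col12a1 differed by 0.43 (0.323) and Col16a1 by 0.85 (0.105). With the replicate block 1 of each list was called, Col24a1 at 1.23 (0.0391; 0.28 without the block) and Col16a1 (0.0459). Of the 9 collagen receptors 1 was higher, Itga10, the integrin subunit that binds collagen II on chondrocytes, by 3.03 (0.00871). That list had 3 calls without outer replicate 2 and with each array scaled to its median.

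**Figure D4:**
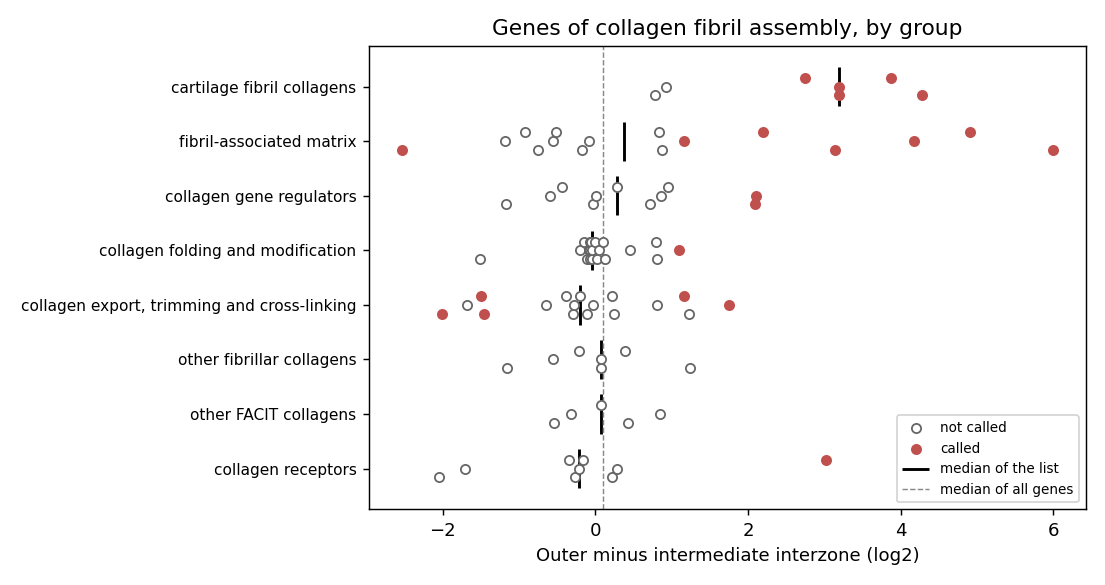
Difference between outer and intermediate interzone (x axis, log2) of each tested gene of the cartilage fibril collagens and of 7 lists of genes that act with them, 1 row a list. Red points passed an adjusted p of 0.05 in limma, open points did not, short bars are list medians and the dashed line is the median of all genes (0.10). The collagen row has its median at 3.19 and no other row has one above 0.38.

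Some markers of other cells, namely of leukocytes and endothelium, also differed between the layers. Of 6 leukocyte markers 5 were lower in the outer interzone, with a summed level (log2) of 2.26 to 3.96 in the outer and 5.54 to 6.47 in the intermediate samples. Of 6 endothelial markers 4 were lower, while their summed levels overlapped (4.94 to 5.95 and 5.25 to 5.46), and the sum was led by Kdr, which differed by 0.82 without passing. The other tested Kdr probe had a difference of opposite sign, as had 1 of 3 tested probes of the leukocyte marker Csf1r. With the replicate block Cldn5 passed too (-2.32, 0.0318, against 0.0888 without it). Of the called markers, Cx3cr1, C1qa, Adgre1, Mrc1 and Emcn were well above background on 2 of 3 outer arrays, and Tek on 1 of 3. They entered the test only through the intermediate samples, where they were high. The leukocyte calls were 0 without outer replicate 3 or intermediate replicate 3 and 1 without intermediate replicate 1 or 2. The endothelial calls were 2 without outer replicate 3 or intermediate replicate 1 and 0 without intermediate replicate 3. The part of these cells in the collagen differences was not tested.

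None of the 5 markers of hypertrophic chondrocytes could be tested, and Col10a1 and Ihh were well above background on no array. Ibsp and Panx3 were well above background on 1 array of each group, and Mmp13 on 1 outer array. Ibsp stood at 2.51 in outer replicate 3 and 3.51 in intermediate replicate 3, and at -4.08 or below on the other arrays. Panx3 was also highest in replicate 3 of each group (-2.76 and -2.98). Of the 7 interzone markers all were tested, with Gdf5, a joint-forming signal, at 5.69 ± 1.07 in the outer and 5.69 ± 0.89 in the intermediate samples (SD, n = 3 each; limma adjusted p = 0.998). Wnt9a, Osr1, Dact2 and Osr2 differed by 0.16, -0.29, -0.37 and -0.54 without passing, and the median of the list was -0.003. Wnt4 was higher in the outer samples by 3.41 (0.0111) and Erg by 0.95 (0.0455), and both are known in joint-forming tissue. These 2 calls were 0 without outer replicate 3 or intermediate replicate 3 and 1 without any other array. Of the tendon and perichondrium markers 0 of 5 tested were called, and of skeletal muscle, red cell and epidermis markers 0 of 5, 0 of 2 and 0 of 3 tested. Summed muscle levels were 0.41, 5.28 and 5.37 in outer replicates 1, 2 and 3, and 2.87, 5.23 and 6.32 in the intermediate ones. Summed red cell levels were 5.67, 9.04 and 9.19 against 8.75, 9.86 and 9.83. With replicates this far apart, the lack of calls does not show like levels.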

How the data were processed

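Per the labels' protocols, RNA of each sample was purified with a micro-scale kit, amplified, Cy3-labelled and run on 1 of 6 one-colour Agilent arrays. Each deposited scanner file holds, per the file headers (Feature Extraction 10.7.3.1, build mm9), a processed intensity per spot with background subtracted, mean and background intensities, and flags. Partek 6.11.0321 stands in the submitters' processing notes, for a step that the sources used here do not state. The authors' deposited table holds the same processed intensity divided by each array's median, on a linear scale and not centred per gene. It states no direction.

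Spots of a probe were averaged on the log2 scale, flagged spots were left out, and the log2 of each array's 75th percentile was subtracted. Of 55681 probes, 9 with no value on some array were dropped, and 26760 were named through RefSeq (2878 symbols changed). Probes entered the test if all 3 arrays of either group had them well above background. The 2 layers were compared by limma 3.58.1 (R 4.3.3) with lmFit and eBayes, two-sided, and Benjamini-Hochberg adjustment over all 23881 probes. The fit was tested on simulated data with each array drawn independently, so without the correlation of same-numbered samples given below. The members and lists were chosen with earlier results of these data known. Besides all 8 member probes, up to 4 called genes of each list with the largest differences were named, or the 2 brightest where none was called, and the 5 genes closest in profile. Other genes were named after their values were seen.

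Same-numbered samples of the 2 groups correlated at 0.563, 0.479 and 0.372 after group means were removed, and those of different numbers at 0.114 at most. The main fit and the permutation test did not use the numbers, which entered other fits as a block. A pairing by number rests on these correlations, as the labels do not say what a number marks. The 3 arrays a group limit the precision of every difference.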

Additional observations from a re-analysis of the deposited data

How the results depend on the processing

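Over 17 other settings no collagen difference changed sign, with ranges of 2.80 to 3.60 for Col2a1, 3.89 to 5.44 for Col9a1, 2.36 to 3.60 for Col9a2, 2.70 to 4.79 for Col9a3, 0.53 to 1.19 for Col11a1, 2.58 to 4.60 for Col11a2 and 0.39 to 1.14 for Col27a1. Since all outer samples lay above all intermediate ones, leaving out arrays, changing the probes tested or adding blocks could not turn a sign. Only another scaling or background correction could have done so. The settings are not all separate. Scaling to the median and the authors' deposited table hold the same values up to rounding. The slide block and slide 1 alone give the same differences. Col2a1, Col9a1 and Col9a3 lost their calls only with no filter on dim probes, Col9a2 in 4 settings and Col11a2 in 9. With no filter limma called 0 probes and 0 collagens (5734 and 8 at an unadjusted p under 0.05), where the tested probes include every dim one. Of all probes 832 were called, against 508 with quantile normalization, 1360 with scaling to the median and 1360 from the authors' deposited table, 526 when probes had to be well above background on all 6 arrays, 1557 with the slide as a block and 1785 within slide 1. The replicate number as a block gave 1723 calls, and 7 collagens in place of 5 (5 with the slide as a block too, where each difference rests on replicate 1 of each group alone). Leaving out 1 array gave 75 to 1243 calls over all probes, 3 to 5 collagens and 16 to 18 gene pairs apart, against 16 (14 with normexp). Scaling to the median moved the median difference of all probes to -0.31, against 0.09. The difference of Col1a2 turned to -0.30 with normexp and quantile normalization, -0.22 with quantile normalization, -0.32 with scaling to the median and -0.32 from the authors' deposited table, and ran from -0.18 (without outer replicate 1) to 0.33 (without intermediate replicate 1) when 1 array was left out, being -0.16 without intermediate replicate 3. That of Col3a1 turned to -0.27, -0.25, -0.32 and -0.32 in the same 4 settings, and ran from -0.088 to 0.24 with 1 array left out, being -0.045 without intermediate replicate 3. The cause was not tested. Signal over background limits the 5′ probe of Col9a1, and Matn1 and Matn3 in the intermediate samples and Epyc in the outer samples. It also limits Cx3cr1, C1qa, Adgre1, Mrc1, Emcn and Tek in the outer samples.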

Other observations

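Beyond the genes with the largest differences, 3 further genes of the fibril-associated matrix list passed in limma. Acan, the core protein of aggrecan, was higher in the outer interzone by 1.16 (adjusted p = 0.0198), and Chad, which encodes chondroadherin, by 2.20 (0.0213). Epyc, the gene of the small proteoglycan epiphycan, was lower in the outer interzone, with a difference of -2.54 (adjusted p = 0.0166), but was well above background on only 1 of 3 outer arrays. The small proteoglycan genes Lum and Ogn differed by -1.18 and -0.76 without passing (0.0789 and 0.183), and both passed with the replicate number as a block (0.034 and 0.0423), as did Fmod with a difference of 0.83 (0.0407, against 0.281 without the block).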
